A study of Homo sapiens with 8 samples.

Results

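The heat shock genes described here are the 10 genes of the deposited expression table named HSF1, HSPA8, HSPA1A, HSPA1B, HSP90AA1, HSP90AB1, HSPH1, DNAJA1, DNAJB1 and SERPINH1. They were chosen by gene name, and all 10 were found among the 16295 genes listed. All 10 also passed the filter on low reads, which left 14164 genes to test. As a label, cytosolic heat shock proteins covers 8 of the 10: HSF1 is the transcription factor of the heat shock response, and SERPINH1 is a collagen chaperone of the endoplasmic reticulum.

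RNA was sequenced from MM1.S, an established human multiple myeloma line, in 8 libraries, 2 for each of 4 groups. Cells of every group were collected after 24 h. The controls received DMSO, the solvent, and each of the other 3 groups received 1 compound, MS177, MS177N1 or C24, at 0.5 uM. As background, MS177 is a degrader that joins the EZH2 inhibitor C24 to a ligand of the ubiquitin ligase subunit cereblon, and MS177N1 is a related compound made as a non-degrading control. A single line was used, and nothing in the labels says whether the replicates of a group were separate cultures, so the tests rest on the spread between libraries alone, and that spread may be technical.

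Heat shock proteins are chaperones that keep other proteins folded. HSP70 proteins bind unfolded stretches with the help of J-domain proteins, which deliver clients and stimulate ATP use, and of exchange factors, which release ADP. HSP90 proteins then act on folding kinases, receptors and transcription factors. HSF1 drives transcription of many of these genes by binding repeats of the letters GAA in alternating orientation, and freed chaperones in turn hold HSF1 inactive. Secretory myeloma cells are known to lean on chaperones because of their antibody production.

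The promoters of the members are shown first because HSF1, the regulator of the family, is among them. RefSeq promoter sequences on GRCh38.p14 matched 9 of the 10 members, the other being HSF1. In the 250 bases before each annotated start, a run of 3 alternating units (GAANNTTCNNGAA or TTCNNGAANNTTC) was searched, and a run of 2 units (GAANNTTC or TTCNNGAA). Each spelling within a pair differs in its first unit, both strands were covered, and every 3-unit match contains 2-unit matches. The 3-unit run was present for 4 members: HSPA8, HSP90AA1, HSP90AB1 and SERPINH1. Counted by gene, 152 of 27305 in the table held it (0.557%), and counted by promoter, 155 of 35116 (0.441%). Of the 15 promoters of the members 4 held it, since HSP90AA1, HSP90AB1 and SERPINH1 have other annotated starts without it. The 2-unit run was present for 8 members and in 4067 promoters (11.6%), and HSPH1 held neither in this window. A match is a description of the letters, not a shown binding site. Capitals mark the match in each stretch, written 5′ to 3′ on the strand of the gene.
HSPA8 distal: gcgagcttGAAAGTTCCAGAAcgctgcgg
HSPA8 proximal: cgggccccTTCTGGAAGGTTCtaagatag
HSP90AB1 distal: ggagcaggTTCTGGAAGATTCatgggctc
HSP90AB1 proximal: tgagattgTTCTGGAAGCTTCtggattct
HSP90AA1: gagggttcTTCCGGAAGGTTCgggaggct
SERPINH1: ttccaactTTCCAGAAGTTTCtcgggacg
HSPA1A: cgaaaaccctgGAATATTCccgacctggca
HSPA1B: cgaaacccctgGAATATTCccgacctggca
DNAJA1: aaagggctccaGAAGATTCcacgagcgccg
DNAJB1 distal: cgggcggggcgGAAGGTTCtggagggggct
DNAJB1 proximal: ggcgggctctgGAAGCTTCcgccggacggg
The HSPA8 stretches are at chr11:123062346-123062374 and chr11:123062171-123062199 on the minus strand, their matches beginning 230 and 55 bases before the start. Those of HSP90AB1 are at chr6:44247770-44247798 and chr6:44247823-44247851 on the plus strand, and that of HSP90AA1 is at chr14:102087112-102087140 on the minus strand. The SERPINH1 stretch is at chr11:75562169-75562197 on the plus strand, its match beginning 76 bases before the start. HSPA1A and HSPA1B carry theirs at chr6:31815426-31815455 and chr6:31827622-31827651, both on the plus strand. DNAJA1 carries it at chr9:33025064-33025093 on the plus strand, and DNAJB1 at chr19:14518456-14518485 and chr19:14518426-14518455 on the minus strand.

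Values below are normalized reads: the reads of a gene divided by the size factor of the library, which removes differences in depth. They are relative to the typical gene of each library, so fewer cells and less RNA per cell cannot be told apart in these bulk samples. A log2 change of 1 is a doubling, and a gene was called where the limma adjusted p was under 0.05. Listed genes held between 20000665 and 26619099 reads per library.

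With MS177 against DMSO, 9 of the 10 members were called, 6 lower and 3 higher. Over all genes tested 57.9% were called, 29.0% lower and 28.9% higher, so a call on its own does not set a member apart here. The median log2 change of the members was -0.40, beside 0.00 over all genes. Constitutive HSP70, both cytosolic HSP90 genes, the large HSP70 relative HSPH1 and both J-domain genes fell, while SERPINH1 and HSPA1A rose. The plot of normalized reads by library shows all members.

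**Figure D1:**
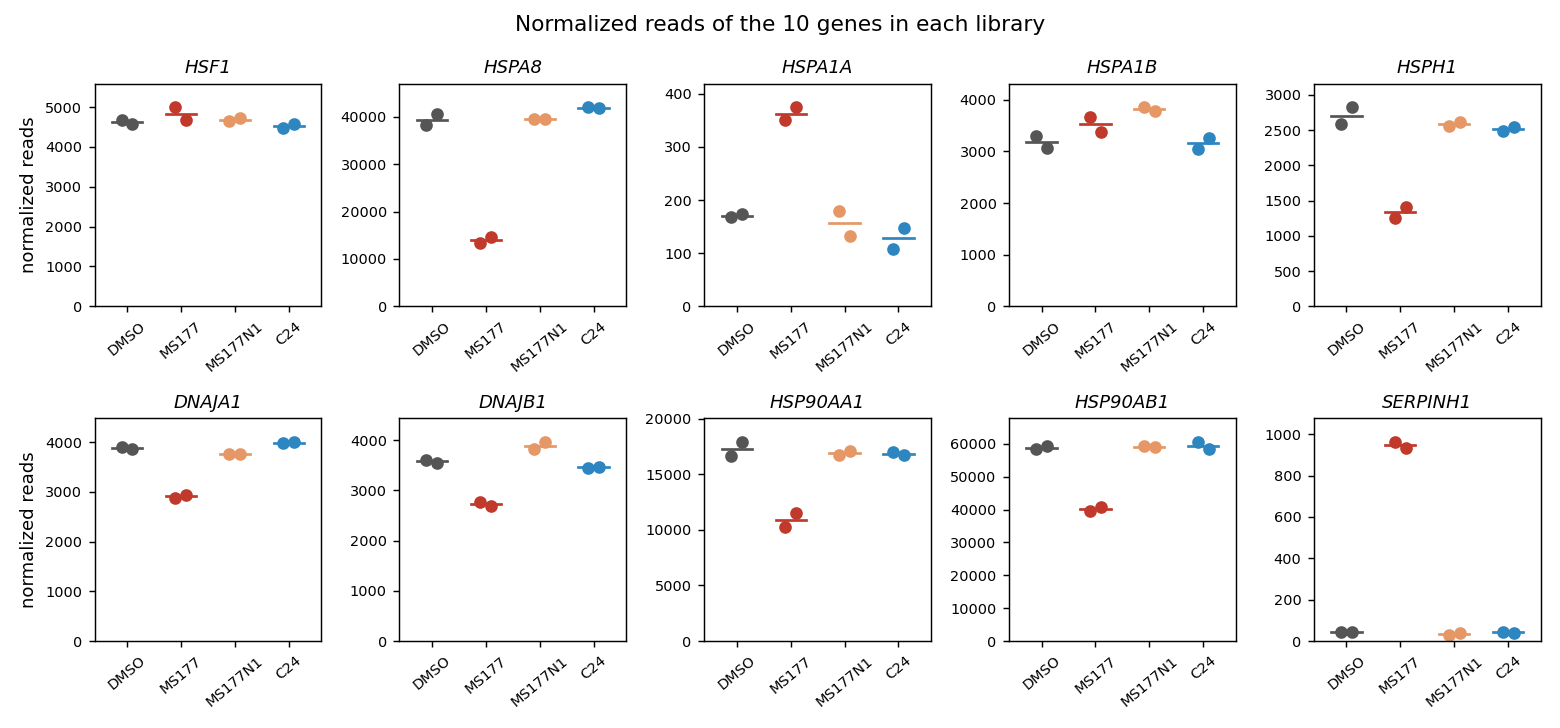
Normalized reads of each of the 10 heat shock genes (linear axis from 0, 1 panel per gene) by treatment, with 1 point per library and a bar for the mean of each group. SERPINH1 sits at 46.2 or below outside MS177 and at 935 or above with MS177, while HSPA8 has a mean of 13979 with MS177 and 39440 with DMSO.

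HSPA8 encodes the constitutive cytosolic HSP70, often called HSC70, and has 2 of the 3-unit runs shown above. It had 38192 and 40688 normalized reads with DMSO, 13323 and 14634 with MS177, 39581 and 39639 with MS177N1, and 41994 and 41892 with C24. Both MS177 libraries lay far below the other 6, and the other 3 groups lay within a narrow band. The mean went from 39440 ± 1765 to 13979 ± 927 (SD, n = 2), a 2.82-fold fall. The log2 change was -1.50 with a standard error of 0.04 (limma adjusted p = 6.93e-13). Of the 14164 genes tested, 308 (2.17%) had a lower log2 change.

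HSPA1A and HSPA1B encode the inducible HSP70 and are near-identical copies. In the GENCODE 29 transcripts used for lengths, 71.3% of the stretches of 50 bases in HSPA1A occur also in HSPA1B, so the split of reads between them is uncertain. HSPA1A had 168 and 173 normalized reads with DMSO, 350.4 and 374 with MS177, 179 and 133 with MS177N1, and 109 and 147 with C24. Both MS177 libraries were above all others, and MS177N1 overlapped both DMSO and C24. The rise was 2.11-fold, a log2 change of 1.08 ± 0.17 (SE; limma adjusted p = 6.49e-05). HSPA1B, the more abundant copy, had 3297 and 3062.0 with DMSO, 3673 and 3373 with MS177, 3851 and 3778 with MS177N1, and 3055 and 3268 with C24. Its MS177 values were above those of DMSO and C24 and below those of MS177N1. Its log2 change with MS177 was 0.15 ± 0.06 (SE; limma adjusted p = 0.0431), the smallest among the called members. That call was lost under TMM scaling, where the adjusted p was 0.0615, and when DMSO replicate 2 (0.283) or MS177 replicate 1 (0.246) was left out.

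Summed, the 2 inducible genes had 3466 and 3235 normalized reads with DMSO and 4024 and 3747 with MS177. The sums were 4031 and 3911 with MS177N1 and 3163 and 3415 with C24, so MS177 and MS177N1 overlapped. Fitted as 1 gene, an alternative chosen after seeing the data, the sum rose by 0.21 ± 0.06 on the log2 scale with MS177 (SE; limma adjusted p = 0.00502). Against MS177N1 the difference of the sum was -0.03 (limma adjusted p = 0.659).

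HSP90AA1, the stress-responsive cytosolic HSP90, had 16660 and 17876 normalized reads with DMSO, 10216 and 11474 with MS177, 16688 and 17077 with MS177N1, and 17014 and 16706 with C24. HSP90AB1, the constitutive form, had 58495 and 59192 with DMSO, 39511 and 40656 with MS177, 59334 and 58951 with MS177N1, and 60474 and 58415 with C24. For both genes the MS177 libraries were the lowest, and the 3 other groups overlapped. HSP90AA1 fell 1.59-fold, a log2 change of -0.67 ± 0.05 (SE; limma adjusted p = 2.78e-08). HSP90AB1 fell 1.47-fold, a log2 change of -0.55 ± 0.03 (SE; limma adjusted p = 1.5e-09). Pseudogenes share some sequence with each: 14.9% of the stretches of 50 bases in HSP90AA1 and 16.6% of those in HSP90AB1 occur in another gene.

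HSPH1 encodes HSP110, an HSP70 relative that acts as an exchange factor. It had 2591 and 2822 normalized reads with DMSO, 1257 and 1414 with MS177, 2560 and 2612 with MS177N1, and 2494 and 2544 with C24. The MS177 libraries were again the lowest. The fall was 2.03-fold, with a log2 change of -1.02 ± 0.07 (SE; limma adjusted p = 2.91e-09), and 748 of the tested genes (5.28%) had a lower value. No stretch of 50 bases of HSPH1 was shared with another gene.

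The J-domain genes fell less. DNAJA1, a J-domain partner of HSPA8, had 3895 and 3867 normalized reads with DMSO, 2884 and 2945 with MS177, 3762 and 3756 with MS177N1, and 3972 and 3996 with C24. DNAJB1, also called HSP40, had 3605 and 3547 with DMSO, 2765 and 2685 with MS177, 3821 and 3956 with MS177N1, and 3451 and 3460 with C24. Both were lowest in the MS177 libraries, with no overlap. The log2 change was -0.41 ± 0.05 for DNAJA1 (SE; limma adjusted p = 2.02e-06) and -0.39 ± 0.05 for DNAJB1 (SE; limma adjusted p = 5.48e-06).

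SERPINH1, known as HSP47, binds procollagen in the endoplasmic reticulum and is a classic heat shock gene. It had 44.0 and 42.3 normalized reads with DMSO, 961 and 935 with MS177, 27.3 and 40.9 with MS177N1, and 46.2 and 38.7 with C24. The MS177 libraries stood apart, while the other 6 held 26 to 54 reads each before normalization. The rise over DMSO was 21.5-fold, a log2 change of 4.43 ± 0.22 (SE; limma adjusted p = 1.61e-10), and 64 of the tested genes (0.452%) rose more. SERPINH1 and HSPA8 lay near opposite ends of the distribution of changes. The promoter of HSPA8 and 1 of the 2 listed for SERPINH1 hold a 3-unit run, whose part in these changes was not tested. On the deposited log2 scale, which compresses low values, the SERPINH1 difference was 2.93.

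HSF1 itself had 4674 and 4576 normalized reads with DMSO, 4989 and 4673 with MS177, 4648 and 4728 with MS177N1, and 4482 and 4584 with C24. MS177 replicate 1 was the highest library, and replicate 2 lay among the values of DMSO and MS177N1. The log2 change with MS177 was 0.06 ± 0.05 (SE; limma adjusted p = 0.297), which did not pass. It did pass under total-read scaling, at 0.15 (limma adjusted p = 0.0178), where the median over all genes was itself 0.09. It also passed with the trend of length and GC content removed, at 0.16 (limma adjusted p = 0.00127). The activity of the HSF1 protein, which is set largely after translation, was not measured.

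The changes against the other 2 compounds were close to those against DMSO. All 3 comparisons share the MS177 libraries and are not independent of each other. Against MS177N1, 8 members were called, 6 lower and 2 higher, beside 57.4% of all genes (28.6% lower and 28.8% higher). Against C24, 9 were called, 6 lower and 3 higher, beside 58.1% of all genes (29.0% lower and 29.1% higher). The HSPA1B call against C24 (0.16, limma adjusted p = 0.0336) was lost in 6 of 19 alternatives, with an adjusted p of up to 0.265 when C24 replicate 1 was left out and 0.2 when MS177 replicate 1 was. HSF1 against C24 (0.09, limma adjusted p = 0.125) became called in 3 of 20, among them without MS177 replicate 2 (limma adjusted p = 0.0272). HSPA8 differed by -1.50 from MS177N1 and by -1.59 from C24, and SERPINH1 by 4.78 and 4.45, or 27.6-fold and 21.9-fold. HSPA1A differed by 1.22 from MS177N1 and by 1.51 from C24. HSPA1B differed by -0.12 from MS177N1 (limma adjusted p = 0.107), so its direction depended on the comparator. The plot of changes by compound shows these values with their intervals.

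Neither MS177N1 nor C24 gave a called change against DMSO in any of the 10 members by limma. At an unadjusted p under 0.05 there were 2 members for MS177N1 and 1 for C24. Over all genes limma called 0.0353% for MS177N1, 0.0918% for C24 (0.0212% higher and 0.0706% lower) and 0.0141% between the 2 compounds. For HSPA8 the 95% interval of the log2 change was -0.09 to 0.10 with MS177N1 and -0.0060 to 0.19 with C24. That of HSP90AB1 was -0.06 to 0.08 and -0.06 to 0.09, and that of HSPH1 was -0.20 to 0.08 and -0.24 to 0.04. SERPINH1, with few reads, had wide intervals of -0.83 to 0.11 and -0.50 to 0.44. All of these intervals exclude the size of the change with MS177.

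Between C24 and MS177N1 limma also called 0 members, and HSPA1B and DNAJB1 were the 2 at an unadjusted p under 0.05. HSPA1B was at a log2 change of -0.27 with C24 against MS177N1 (interval -0.40 to -0.15, limma adjusted p = 0.516). With MS177N1 against DMSO it was at 0.26 (interval 0.14 to 0.39, limma adjusted p = 0.442). Both MS177N1 libraries exceeded the other 6. DNAJB1 differed by -0.17 between C24 and MS177N1 (interval -0.28 to -0.06, limma adjusted p = 0.997). With C24, HSPA1A was at -0.43 (interval -0.80 to -0.06, limma adjusted p = 0.908). None of these passed the adjustment over all genes. HSPA1B did so for MS177N1 against DMSO in a fit with the trend of length and GC content removed, and for C24 against MS177N1 in that fit and in a fit of those 2 groups alone.

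Levels of different genes were compared as normalized reads per kilobase of transcript. With DMSO the order was HSP90AB1 at 22006, HSPA8 at 16013, HSP90AA1 at 5110, HSF1 at 2159, DNAJA1 at 1630, DNAJB1 at 1579, HSPA1B at 1261, HSPH1 at 521, HSPA1A at 68.8 and SERPINH1 at 12.7. The closest neighbours in that order were DNAJA1 at 1630 ± 8.44 and DNAJB1 at 1579 ± 18.1 (SD, n = 2), which differed by more than their spread, as did all other neighbours. With MS177 the first 3 remained in the same order at 14990, 5675 and 3209. HSPA1B reached 1397 per kilobase and moved above DNAJA1 at 1224 ± 18.2 and DNAJB1 at 1204 ± 24.9 (SD, n = 2), which did not differ beyond their spread. SERPINH1 reached 280 ± 5.42 and lay above HSPH1 at 257 ± 21.4 in both libraries, although the ranges of mean ± SD touched, and both were above HSPA1A at 146 (SD, n = 2).

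The composition of the HSP70 group moved, and that of the HSP90 pair hardly did. HSPA8 made up 91.9% and 92.8% of the HSP70 level per kilobase (HSPA8, HSPA1A and HSPA1B together) in the DMSO libraries and 77.2% and 80.0% in the MS177 libraries. It was between 90.9% and 93.1% in the MS177N1 and C24 libraries, so MS177 did not overlap with the rest. Within the HSP90 pair, HSP90AB1 made up 81.6% and 80.7% with DMSO and 83.0% and 81.7% with MS177, so the ratio of the 2 genes was nearly the same as both fell. DNAJA1 and DNAJB1 together stood at 20.8% and 19.3% of the HSPA8 level with DMSO and at 45.0% and 40.8% with MS177. HSPH1 stood at 3.22% and 3.29% of HSPA8 with DMSO and at 4.48% and 4.58% with MS177. The 10 members took 0.579% and 0.601% of reads with DMSO, and 0.373% and 0.390% with MS177. With 2 libraries against 2, an exact permutation test cannot go below p = 0.333, so no test is given for these shares.

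**Figure D2:**
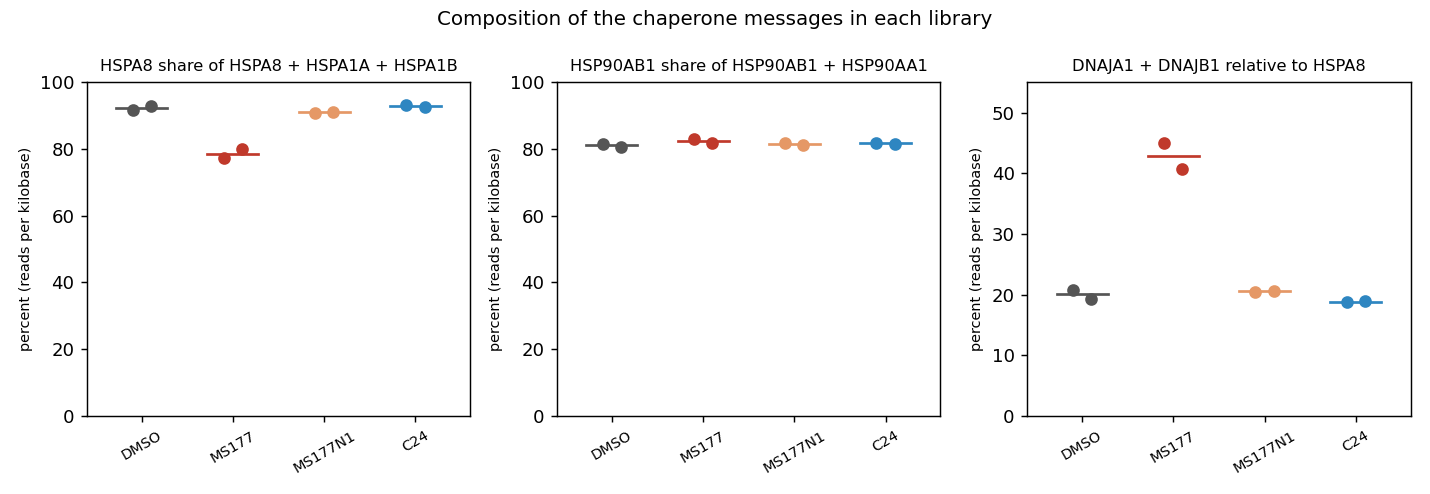
Share of HSPA8 in the HSP70 level per kilobase, share of HSP90AB1 in the HSP90 level per kilobase, and DNAJA1 plus DNAJB1 as a percent of the HSPA8 level per kilobase, with 1 point per library in each group. HSPA8 falls below 81% with MS177 only, and HSP90AB1 stays between 80.7% and 83.0% in all libraries.

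The other cytosolic chaperone genes, from lists of known co-chaperones and relatives, gave 52 tested genes, of which 26 fell and 7 rose with MS177 against DMSO. Read against the 29.0% of all genes called lower and 28.9% called higher, which apply to each count of listed genes below, more of them fell and fewer rose, with no test of that difference. Their median log2 change was -0.18, beside 0.00 over all genes, and limma called 0 of them with MS177N1 or with C24 against DMSO, where 1 and 2 had an unadjusted p under 0.05. Among HSP90 co-chaperones, 11 of 17 fell and 4 rose, with a median of -0.22. FKBP4, a prolyl isomerase that works with steroid receptors, fell by 1.31, AHSA1, an activator of HSP90 ATPase, by 1.06, and STIP1, the adaptor between HSP70 and HSP90, by 1.06 on the log2 scale. CDC37L1, a relative of the kinase adaptor CDC37, rose by 0.98, ahead of PPID at 0.26 and PIH1D1 at 0.25.

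Among HSP70 co-chaperones, 11 of 25 fell and 3 rose, with a median of -0.13. DNAJB2, a J-domain protein that sorts clients to degradation, rose by 2.13 on the log2 scale, from a mean of 1137 to 4988 normalized reads. DNAJB4 rose by 0.55 and DNAJC13 by 0.23. BAG2, which slows client ubiquitination, fell by 1.33, BAG1, an exchange factor, fell by 0.75, and DNAJA4, at low levels of 21.7 and 10.4 normalized reads, fell by 0.99. The list of other HSP70 and small heat shock proteins, where HSPB11 stands by its symbol only, had 6 tested genes. In it 2 were lower (HSPB11 and HSPA14), near the share of all genes called lower, and 0 higher, with a median of -0.15. The HSF1 relatives and binders had 4 tested genes, 2 lower (HSF2 and HSBP1, a negative regulator of HSF1) and 0 higher, with a median of -0.20. BAG3, HSPB1 and HSPA6, named here after their values were seen, were at 0.02, 0.07 and 0.33 (limma adjusted p = 0.909, 0.64 and 0.174). They are only part of the genes that HSF1 can drive. Among the members, HSPA8 (-1.50), HSPH1 (-1.02) and DNAJB1 (-0.39) fell, while HSPA1A (1.08) and SERPINH1 (4.43) rose. The split of reads between HSPA1A and HSPA1B is uncertain, and their sum rose by only 0.21 and differed by -0.03 from MS177N1. Whether HSF1 activity changed was not tested.

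The paralogs in mitochondria and the endoplasmic reticulum gave 15 tested genes, 9 lower and 4 higher, with a median of -0.21, the number higher being near the share of all genes. The mitochondrial chaperones HSPE1, TRAP1 and HSPD1 fell by 0.99, 0.83 and 0.56 on the log2 scale. HSPA9, the mitochondrial HSP70, rose by 0.23 and is named here after its value was seen. HSPA13, a microsomal HSP70, and DNAJB9, an endoplasmic reticulum J-domain protein, rose by 0.96 and 0.89, and the exchange factor SIL1 by 0.25. The other endoplasmic reticulum paralogs are named here after their values were seen. Mean normalized reads with DMSO and MS177 were 39949 and 29440 for HSP90B1, 21835 and 19737 for HSPA5, and 11604 and 10062.5 for HYOU1. Those means were also lower with MS177 for DNAJB11 (4644 and 3856) and DNAJC10 (3790 and 2679), but not for DNAJC3 (2918 and 3180).

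SERPINH1 was set beside the collagen genes and enzymes it works with. Of 13 tested collagen-modifying enzymes and helpers, 4 rose and 5 fell, with a median of 0.00, both near the shares of all genes. MIA3, an export receptor for collagen, rose by 0.72, CRTAP by 0.59 and the lysyl hydroxylase PLOD2 by 0.43. COLGALT1, which glycosylates collagen, fell by 1.07, the lysyl hydroxylase PLOD1 by 0.74 and P3H4 by 0.67. Of 24 listed collagen genes 13 were tested. COL16A1 and COL27A1 reached the minimum in 2 libraries only through MS177, where they are high, so no count over the collagen genes is given. COL16A1 went from a mean of 7.35 to 49.8 normalized reads, COL27A1 from 7.08 to 46.0 and COL1A1, a chain of type I collagen, from 10.5 to 42.0. COL24A1 fell by 1.28 and COL9A2 by 0.53 on the log2 scale. Per kilobase, COL16A1 stood at 8.68, COL27A1 at 5.91 and COL1A1 at 6.25 normalized reads with MS177, beside 280 for SERPINH1. Of the enzymes and helpers named above, P3H4 was below SERPINH1 at 36.3 per kilobase. The others were above it, COLGALT1 at 298, PLOD1 at 409, MIA3 at 443, PLOD2 at 500 and CRTAP at 645.

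**Figure D3:**
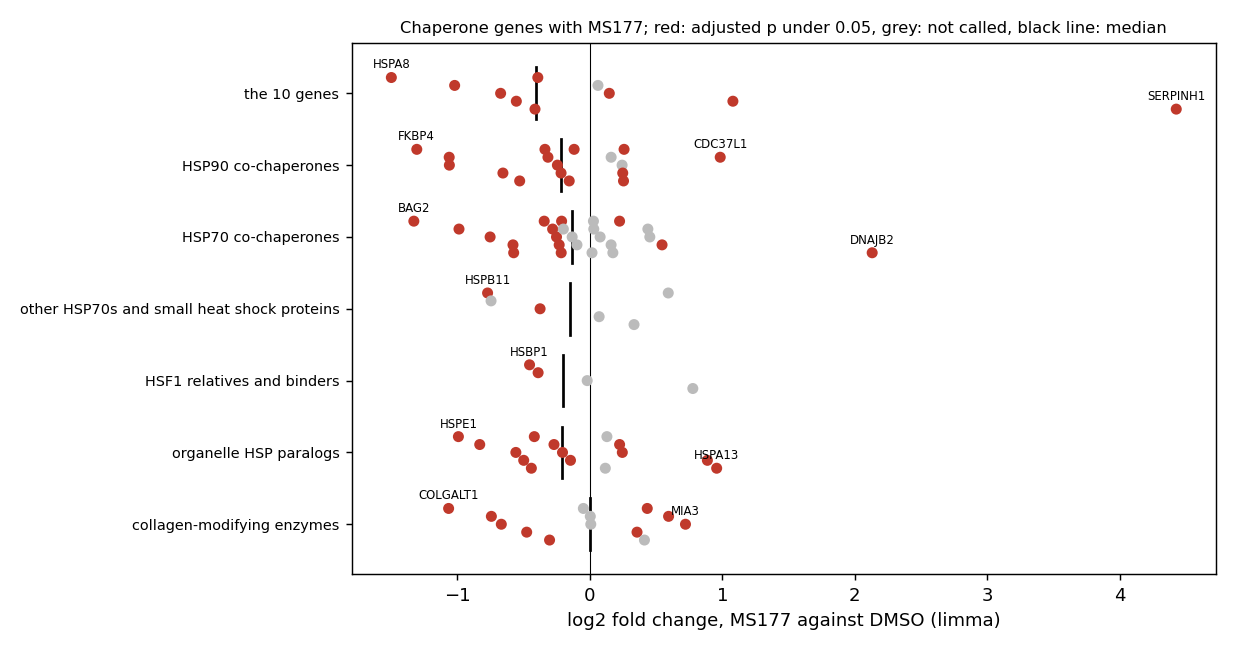
Log2 fold change for MS177 against DMSO of each tested gene among the 10 heat shock genes, the chaperone lists and the collagen-modifying enzymes, 1 point per gene, red where the limma adjusted p was under 0.05, with a black bar at each median. The HSP90 co-chaperones have a median of -0.22, and DNAJB2 at 2.13 is the highest of the HSP70 co-chaperones.

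The 3-unit run marked 152 genes of the promoter table, 46 of them tested, of which 17 fell and 8 rose with MS177, with a median of -0.11. Without the members, 14 of 42 fell (33.3%) and 7 rose (16.7%), beside 31.3% and 31.0% of the 9717 tested genes with a promoter and no such run. The largest rise in this set was that of SERPINH1 and the largest fall that of HSPA8.

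Genes whose levels followed a member most closely over the 8 libraries were found by Euclidean distance between log2 profiles, each taken relative to its DMSO mean. ETS1, NASP and FAM57A were nearest to HSPA8, at distances of 0.137, 0.154 and 0.203. MME was nearest to SERPINH1, at 0.618, and rose from a mean of 97.0 to 2024 normalized reads. ACVRL1 and DUSP27 followed it, both at 0 in the DMSO libraries and at means of 21.5 and 18.5 normalized reads with MS177. Both passed the filter on low reads only through MS177, where they are high, so their closeness to SERPINH1 rests on few reads. P2RY10, FASTKD1 and TMEM168 were nearest to HSPH1, and ANKH, PPP2R1B and MAST2 to HSP90AB1. YBX3, SLC25A3 and RUFY1 were nearest to DNAJA1, OPA3, C2orf44 and TFPT to DNAJB1, and PAF1, MYO1C and KLHDC3 to HSF1. GBP2, DDIT4L and INAFM1 were nearest to HSPA1A, and RP11-352M15.2, ZBTB18 and SETD1B to HSPA1B.

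Marker genes of cell types moved with MS177 as well. Beside the 29.0% of all genes called lower and 28.9% called higher, 6 of 8 listed plasma cell markers fell (SDC1, TNFRSF17, PRDM1, IRF4, IGJ and MZB1) and 1 rose (XBP1), and their summed level was 186453 to 186778 with DMSO and 114634 to 117009 with MS177. Of 5 listed monocyte markers 3 were tested, and the summed level of all 5 was 293 to 368 with DMSO and 1552 to 1671 with MS177. Nearly all of that sum was CD68, at 282 and 356 with DMSO and 1585 and 1471 with MS177. CD163 and AIF1 passed the filter only through MS177, at 23 and 26 and at 48 and 45 reads, and CD14 stayed between 7 and 11 reads in the DMSO and MS177 libraries. Of 6 listed fibroblast markers, 3 were tested, COL1A1 rose and TAGLN fell, 2 were at 0 in both DMSO libraries, and the sum was 83.6 to 96.1 with DMSO and 92.6 to 111 with MS177. The 1 listed B cell marker, BCL6, rose by 1.93, and both listed T and NK cell markers fell, CD3E by 1.09 and GNLY by 1.36 on the log2 scale. Their levels were low, with DMSO and MS177 means of 13.0 and 51.6 normalized reads for BCL6. Those means were 68.7 and 31.6 for CD3E and 23.2 and 8.16 for GNLY. Against C24, BCL6 was not called, and only 1 of the 2 T and NK cell markers was called against C24 or against MS177N1. The 13 mitochondrially encoded genes summed to 467876 to 477724 with DMSO and 329409 to 360006 with MS177, and 10 of them fell. With C24 that sum was 332045 to 339867 and 9 of the 13 fell, and with MS177N1 it was 370278 to 390846 and 4 fell. They made up 9 of the 13 genes called with C24 and 4 of the 5 called with MS177N1, while 0 of the 10 members were called with either. The part of these shifts in the changes of the heat shock genes was not tested.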

How the data were processed

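RNA-seq of MM1.S cells was measured in 8 libraries, 2 per group. The deposited table holds log2 values that the authors normalized, per the file headers. The submitters' processing notes list hg19 as the build, and STAR 2.4.2, Salmon 0.1.19 and DESeq2 1.38.2 as tools, without saying which made which step. The log2 scale had the shape of a variance-stabilizing transformation, so it was inverted, and 130360 of 130360 values were whole reads within 0.01. The filter asked for 10 reads (scaled to the median library) in 2 libraries and 15 reads in total, which kept 14164 genes and left out 2131. Normalized reads with 1 added were log2-transformed, and limma 3.58.1 with trend and robust options (statmod 1.5.0, R 4.3.3) was fitted to all 4 groups together. No count model was used because the deposited unit is log2. P-values were adjusted by Benjamini-Hochberg over all tested genes in each of 6 comparisons. The fit was also run on simulated data, in which far fewer genes changed than were called with MS177. That run does not show how the fit behaves with so many changes, and its result is not reported here. The members and gene lists were chosen with earlier results of these data known. Of each list, the named genes are the called ones with the largest changes, up to 3 in each direction. Members are given with the 3 genes nearest in profile, except for HSP90AA1, where that result is not reported here. Lengths are those of the longest principal transcript in GENCODE 29, matched for 85.4% of listed genes.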

Additional observations from a re-analysis of the deposited data

How the results depend on the processing

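With 2 libraries per group, each spread rests on few samples. Over 20 alternatives none reversed a called member, and HSPA8, HSP90AA1, HSP90AB1, HSPH1, DNAJA1, DNAJB1 and SERPINH1 kept their calls for MS177 against DMSO in every one. The removal of the length and GC trend and the summed HSPA1A and HSPA1B were added after seeing the data. The few calls without MS177 moved, and the cause was not tested. For MS177N1 against DMSO 5 genes were called; the number was 3 with total-read scaling, 9 with a pseudocount of 5, 8 on the deposited log2 values, 8 with voom weights, 0 without trend and robust options, 17 with only the 2 groups compared, 2 with the length and GC trend removed, and 0 to 19 leaving out 1 library. For C24 against DMSO 13 were called, and 1 without trend and robust options, and 10 to 28 leaving out 1 library. For C24 against MS177N1 2 were called, and 1 with a pseudocount of 5, 28 with only the 2 groups compared, 6 with the length and GC trend removed, and 0 to 13 leaving out 1 library. In these comparisons HSPA1B alone of the members became called: 1 member for MS177N1 against DMSO with the trend removed (0 to 1 leaving out 1 library), and 1 for C24 against MS177N1 with the trend removed and with only the 2 groups compared (0 to 1 leaving out 1 library). For MS177 against DMSO the HSPA1B call was also lost without trend and robust options (limma adjusted p = 0.152), with only the 2 groups compared (0.117), without either MS177N1 library (0.0743 and 0.0742) and without either C24 library (0.0579 and 0.0582). Replicates share only a number: deviations of same-numbered libraries correlated between -0.06 and 0.06. With a replicate block 11 genes were called for MS177N1 and 20 for C24 against DMSO, and no member's call changed.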
